A study of Caenorhabditis elegans with 2 samples.

Results

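The regions described here are the 529 peaks of CEBP-1 chromatin binding that stood in the optimal peak list of the series and overlapped, by 1 bp or more, no peak of its conservative list. They were chosen by measured values, namely the reproducibility scores that set both lists, and made up 26.9% of the 1969 peaks of the optimal list. The other 1440 optimal peaks overlapped a conservative peak. CEBP-1 was tagged at its own locus with TY1, EGFP and 3xFLAG by CRISPR in Caenorhabditis elegans strain RW12290. Whole young adult animals were collected at 62 hours after a starved L1 start that followed bleaching, and chromatin sheared to 200 to 800 bp was precipitated with anti-GFP antibody, according to the sample descriptions, although cebp-1 is what the labels enter as the antibody. The series has 1 group of 2 biological replicates, and no input or untagged sample was used here, so no peak is set against a background library. Whole animals mix all tissues, so a peak in few cells and a weak peak in many cells cannot be told apart.

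CEBP-1 is a basic leucine zipper protein of the C/EBP family, whose members bind DNA as dimers at sites made of paired half-sites. In C. elegans it is known for axon regeneration downstream of the DLK-1 kinase pathway, and for stress and surveillance immunity, in which it acts beside the bZIP factor ZIP-2. The optimal and conservative lists are both cut by the irreproducible discovery rate (IDR). The global IDR is the estimated fraction, among peaks of that rank or better, not shared between the sets of reads compared. Each list here was cut at a global IDR of 0.01. The ranked lists hold 2020 and 1587 peaks that meet this cut, against 1969 and 1546 listed, and why they differ was not examined.

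The sequences under the peaks are shown because a word of 8 bases, TTGCGAAA, stood at many summits. The first set holds 10 of the strongest regions that carry it within 100 bp of the summit. The stronger region of zip-4 and nol-58 (signal 111.7) carries it too and is not shown. Each is named by the gene whose promoter or nearest start it lies at. The word is in capitals, and each sequence is read 5′ to 3′ on the strand that spells it.
C49F8.1: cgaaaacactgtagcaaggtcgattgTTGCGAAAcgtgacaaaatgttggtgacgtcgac
alh-9/cct-6: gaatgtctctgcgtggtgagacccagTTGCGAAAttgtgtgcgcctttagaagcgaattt
cri-3: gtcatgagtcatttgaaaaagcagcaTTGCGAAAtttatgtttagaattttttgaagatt
sid-5: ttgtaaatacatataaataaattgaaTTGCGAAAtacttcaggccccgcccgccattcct
C25F9.16/C25F9.11: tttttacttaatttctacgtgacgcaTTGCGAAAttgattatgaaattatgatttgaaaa
hgap-2: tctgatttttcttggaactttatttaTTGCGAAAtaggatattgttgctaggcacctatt
C34D4.4: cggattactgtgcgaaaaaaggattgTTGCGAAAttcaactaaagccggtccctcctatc
ZC262.13: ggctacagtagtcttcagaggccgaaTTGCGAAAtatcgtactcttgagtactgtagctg
H06H21.37/ubxn-6/eif-1.A: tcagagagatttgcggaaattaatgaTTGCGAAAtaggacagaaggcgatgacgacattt
ran-1/dkc-1: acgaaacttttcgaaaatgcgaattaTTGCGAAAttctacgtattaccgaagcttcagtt
They lie, in that order, at chrX:13367119-13367178 (minus), chrIII:5855930-5855989 (minus), chrIII:3396033-3396092 (minus), chrX:6904238-6904297 (plus), chrV:19433904-19433963 (plus), chrII:8675554-8675613 (minus), chrIV:7149170-7149229 (plus), chrIII:8325994-8326053 (plus), chrIV:4809994-4810053 (plus), chrIII:10747791-10747850 (plus) of WBcel235 (ce11), with the strand in brackets. The capitals are flanked by A or G before and mostly by T after, and the centre of the word was 0.5 bp from the summit at alh-9 and cct-6.

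The 4 strongest regions without TTGCGAAA are shown for contrast, each as 60 bases around the summit on the plus strand.
fli-1/anmt-1: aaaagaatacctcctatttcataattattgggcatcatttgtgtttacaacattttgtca
F43E12.1: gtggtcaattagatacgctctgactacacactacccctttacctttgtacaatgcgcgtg
C25F9.5: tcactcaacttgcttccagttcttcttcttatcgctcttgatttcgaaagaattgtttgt
F55G7.5: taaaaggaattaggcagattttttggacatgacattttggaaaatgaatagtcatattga
They lie at chrIII:8684020-8684079 (plus), chrX:7181787-7181846 (plus), chrV:19410847-19410906 (plus), chrX:11937567-11937626 (plus). The next 5 are among the strongest regions with the 6-base word TGATAA within 25 bp of the summit. TGATAA is the core that GATA factors of the ELT family bind. It and any TTGCGAAA, on either strand, are in capitals. This set was chosen after the values were seen, and not every region of that strength was eligible.
abt-4: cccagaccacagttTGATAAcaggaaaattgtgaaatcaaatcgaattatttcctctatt
clec-150: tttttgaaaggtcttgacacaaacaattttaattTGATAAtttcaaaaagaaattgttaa
C06B8.2: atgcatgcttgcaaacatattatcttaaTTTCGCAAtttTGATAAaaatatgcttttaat
C25F9.14: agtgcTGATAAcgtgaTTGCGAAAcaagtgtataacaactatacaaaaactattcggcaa
C54E4.5: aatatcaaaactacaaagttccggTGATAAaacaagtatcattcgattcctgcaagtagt
They lie at chrV:332797-332856 (minus), chrIII:1004612-1004671 (plus), chrV:15478757-15478816 (minus), chrV:19436501-19436560 (plus), chrIV:2149582-2149641 (minus). C06B8.2 and C25F9.14 carry both words within the 60 bases.

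In the optimal ranked list the 529 regions were weaker peaks, which the rule itself leads to. Their signal value, the enrichment measure in the seventh column as deposited, ran from 2.09 to 140.6 with a median of 78.2 (quartiles 71.2 and 86.1), against a median of 120.1 (quartiles 92.6 and 185.6) and a highest value of 3014 in the other optimal peaks. None reached a signal value of 150, which 500 of the other optimal peaks did. The intervals were 304 bp wide in 528 of the 529, against 1122 of the 1440 others. Together they covered 156213 bp, 0.156% of the genome.

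**Figure D1:**
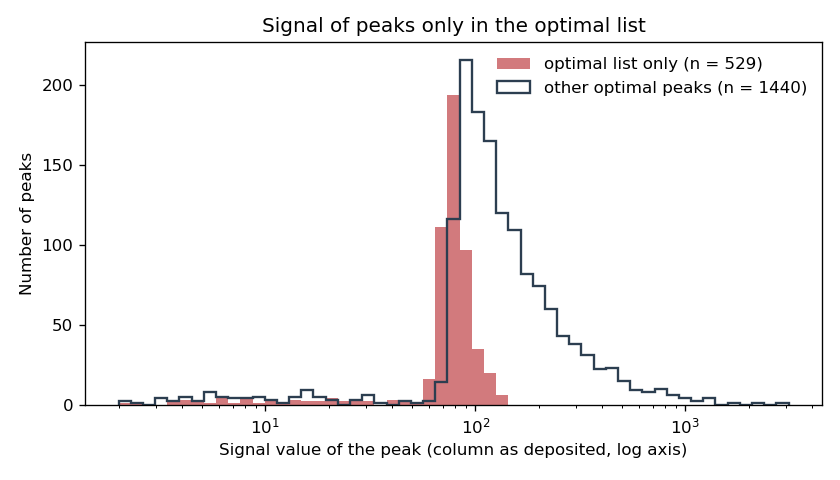
Histogram of the signal value of each peak (log axis) against the number of peaks, for the 529 peaks only in the optimal list (filled) and the 1440 other optimal peaks (line). The filled bars end at 140.6, and a small tail of both sets lies under 20.

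Their −log10 global IDR in the optimal comparison ran from 2.00 to 4.19 (median 2.35), where 2 is the threshold. In the conservative comparison the same intervals, present for 519 of them, ran from 0.0665 to 1.9998 (median 1.49). The shortfall was small for many: 253 had a value of 1.5 or more. A second group was far below, with 97 under 0.5, of which 78 had a peak in the thresholded list of replicate 1 and 6 in that of replicate 2. Just inside the optimal threshold were the regions at lro-1 (2.0001, signal 64.9), ttr-37, gldi-4, snf-6 with mtg-1, and ndnf-1. The nearest ranked peaks outside it, on chromosomes II and X, had 1.9992 and 1.998. Closest to the conservative threshold were the pair at atf-4 (1.9998 and 1.998), T07F12.1, skn-1 (1.997) and phb-2. The choice also ran the other way: 102 of the 1546 conservative peaks overlapped no optimal peak, with a median signal of 81.1.

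**Figure D2:**
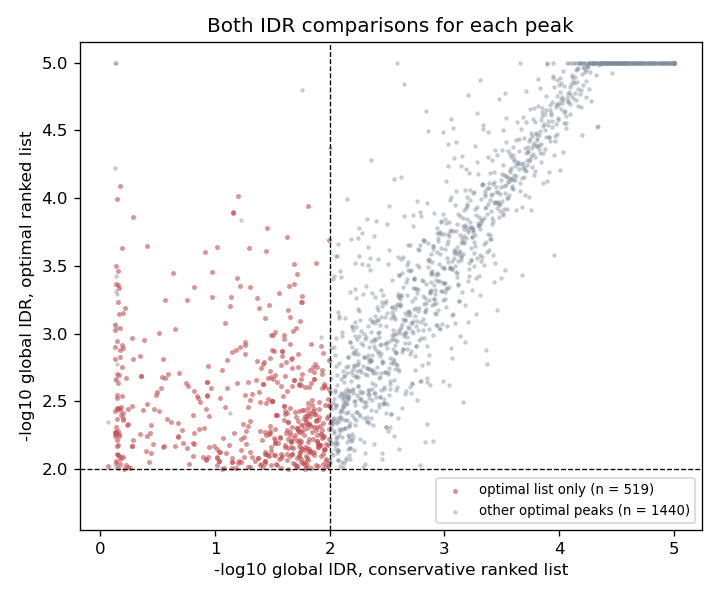
Each point is a peak of the optimal list, with its −log10 global IDR in the conservative ranked list on the x axis and in the optimal ranked list on the y axis; dashed lines mark the threshold of 2. The 519 peaks only in the optimal list that have a value on both axes lie left of the vertical line, while 16 of the 1440 other optimal peaks do so as well and overlap a conservative peak through another interval.

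Replicate 1 accounted for most of the support from single libraries. Of the 529 regions, 256 (48.4%, 95% Wilson interval 44.2 to 52.6) overlapped a peak in the thresholded list of replicate 1, against 71.0% of all optimal peaks and 79.3% of the other optimal peaks. Only 30 (5.67%, 4.0 to 7.98) overlapped one in replicate 2, against 40.2% of all optimal peaks and 52.8% of the others. No region stood in both thresholded lists, against 686 of the 1440 other optimal peaks (47.6%). In neither list stood 243 of the 529 (45.9%, 41.7 to 50.2), against 223 of the others (15.5%, 13.7 to 17.4). The replicate lists differ in length, with 1488 peaks in replicate 1 and 797 in replicate 2, and they come from the same reads as the series lists, so these shares describe the rule and were not tested.

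Most regions did overlap a peak in the full ranked list of each replicate, as nearly all other optimal peaks did. In these lists, which hold 33933 and 39805 peaks, 524 (99.1%) overlapped a peak of replicate 1. For replicate 2 it was 499 (94.3%), and for both 495 (93.6%). The shares in the other optimal peaks were 99.7%, 99.7% and 99.4%. The median rank was 1550 in replicate 1, the top 4.57% of that list, and 4586 in replicate 2, the top 11.5%, against medians of 787 and 792.5 for the other optimal peaks. Of the 495 in both ranked lists, 351 (70.9%, 66.8 to 74.7) stood higher in replicate 1 by this percentage, against 599 of 1432 (41.8%, 39.3 to 44.4) of the others. Among the regions in neither thresholded list the share was 119 of 234 (50.9%).

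**Figure D3:**
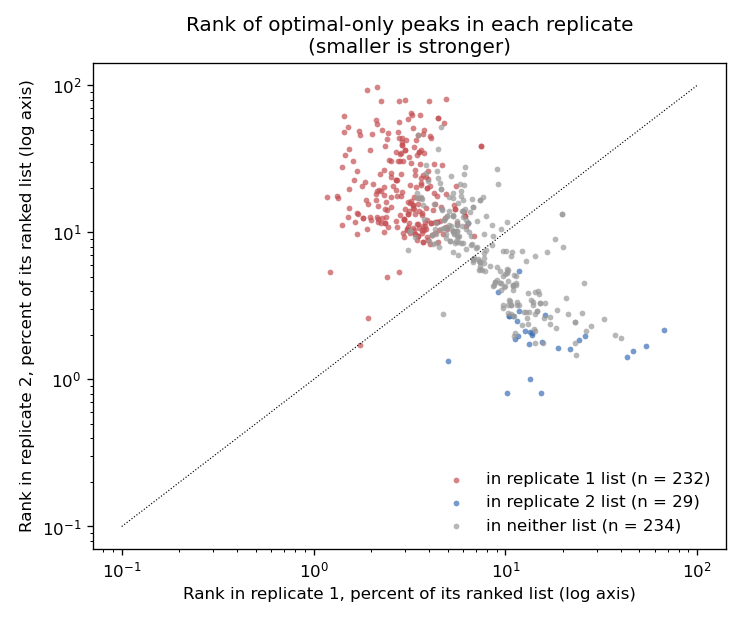
Rank of each of the 495 regions found in both replicates' ranked lists, as a percentage of the list (log axes, smaller is stronger), with replicate 1 on the x axis and replicate 2 on the y axis; colour gives the thresholded list that holds the region, and the dotted line marks equal rank. Of the 232 points of the replicate 1 list 231 rank higher in replicate 1, and of the 29 points of the replicate 2 list 28 rank higher in replicate 2.

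The strongest regions show this split peak by peak. The highest signal value, 140.6, was at chrIII:8683898-8684201, 314 bp upstream of fli-1, which encodes a gelsolin-family actin regulator, and in the promoter of anmt-1. It ranked 411 in replicate 1 and 2134 in replicate 2, and its conservative value was 0.143. The next, 134.7 at chrX:7181665-7181968, lay in no gene, nearest to F43E12.1, with no overlapping replicate 1 peak and rank 473 in replicate 2. Then came intergenic sequence upstream of C49F8.1 (133.4), the promoter of C25F9.5 (133.2, with no replicate 2 peak) and the promoter of alh-9, an aldehyde dehydrogenase, and cct-6, a subunit of the chaperonin that folds actin and tubulin (130.0). Of the 25 strongest, 23 had a peak in the thresholded list of replicate 1 and 1 in that of replicate 2. Other optimal peaks were in the replicate 1 list about as often at such signal. At 100 to 150 it held 45 of 49 regions (91.8%) and 419 of 464 other optimal peaks (90.3%). The replicate 2 list held 2 of these 49 regions, against 204 of the 464. These shares were not tested.

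Further down these 25, promoter peaks stood at cri-3 (117.8), an immunity regulator, sid-5 (116.2), needed for spreading of RNA interference, hgap-2 (115.4) and C34D4.4 (114.7). C25F9.16 with C25F9.11 (115.7), ZC262.13 (114.2) and C18E9.9 (119.5) followed the same pattern. H06H21.37, ubxn-6 and eif-1.A, which encodes a translation initiation factor, shared 1 peak of 112.0. The promoter of zip-4, a bZIP factor, and nol-58, of the nucleolar RNP that guides RNA methylation, had 111.7. F25B4.4 and hmgs-1, the HMG-CoA synthase of the mevalonate pathway, had 111.6, and ran-1, the Ran GTPase, with dkc-1, the pseudouridine synthase dyskerin, had 110.9. A peak in an intron of clec-150, a C-type lectin gene, had 110.7. Peaks outside promoters lay nearest to F55G7.5 (126.5), zip-5 (125.0), ubq-1 (120.7), F53E10.5 (115.1), abt-4 (115.1) and hum-1 (111.3), and others in a tRNA gene near srd-43 (122.6) and in linc-77 near ilys-6 (114.5).

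At the C25F9 cluster on chromosome V, 7 of the 8 optimal peaks between 19399320 and 19467902 belonged to the set, with signal values from 84.7 to 133.2, and all 8 stood in the replicate 1 list and none in the replicate 2 list. This cluster was singled out after its values were seen. The genes at its peaks include C25F9.13 (100.7), the chemoreceptor gene srw-86 (90.6), C25F9.5 and C25F9.14 (101.8).

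The 30 regions of the replicate 2 list were also taken separately, and their higher ranks in replicate 2 follow from that choice. Among them, the intervals at hda-2 (75.2 and 4.93) overlapped each other and the same replicate peaks. Its strongest, 122.6 at chrX:13306938-13307241, ranked 5194 in replicate 1 and 322 in replicate 2, and lay in a tRNA gene. Another, at chrV:7548578-7548881 (87.9), was nearest to ftn-1, a ferritin gene, and ranked 14687 in replicate 1 and 564 in replicate 2. In all, 13 of the 30 lay in promoters (43.3%, 27.4 to 60.8), against 55.7% of all optimal peaks. Exons held 4 (13.3%), against 3.29% of the other optimal peaks in that list (adjusted Fisher exact p = 0.103). Of the rest, 7 lay in introns, 4 between genes and 2 in non-coding genes. tRNA genes were within 250 bp of the summit at 6 of the 30 (95% interval 9.51 to 37.3%), against 3 of 256 in the replicate 1 list (1.17%, 0.399 to 3.39) and 22 of 243 in neither (9.05%, 6.05 to 13.3). Over all 529 regions it was 31 (5.86%), against 89 of the other optimal peaks (6.18%) and 6.09% of all optimal peaks. The tRNA share was not taken for the other optimal peaks of each replicate list.

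A low tail held 36 regions with a signal value under 20 (6.81%), against 67 of the other optimal peaks (4.65%). Each of the 36 overlapped a stronger interval whose summit was 199 to 258 bp away (median 205), and for 35 of them that interval was another of the 529. At atf-4 the intervals chrX:14810669-14810972 and chrX:14810868-14811171 had signal values of 90.8 and 5.08 and overlapped the same replicate peaks, ranked 1261 in replicate 1 and 3424 in replicate 2. In all, 93 regions overlapped another of the set, and joining them left 482 separate regions. The median distance from a region to the nearest conservative summit was 15214 bp. Of the regions, 34 lay within 1000 bp of one, and the closest was 203 bp away. These distances were not compared with those of other positions.

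Summits were sorted by protein-coding promoters (1000 bp upstream to 200 bp downstream of a transcript start), then exons, introns, non-coding genes and intergenic sequence of the Ensembl 115 annotation. Promoters held 263 of the 529 summits (49.7%, 45.5 to 54.0), against 834 of the 1440 other optimal peaks (57.9%, 55.3 to 60.4) and 55.7% of all. The share was lower by 8.20 percentage points (two-sided Fisher exact test, Benjamini-Hochberg adjusted over 5 classes, p = 0.0063). It was not lower at every signal. Promoters held 46.7% of the regions at a signal of 70 to 80, against 42.2% of the others. The shares were 54.7% against 50.9% at 80 to 90, 55.6% against 49.4% at 90 to 100, and 65.3% against 59.7% at 100 to 150. They were 29.6% against 33.3% at 60 to 70, 50% in both at 20 to 60, and 50% against 59.7% under 20. The promoter shares by signal were not tested. Exons held 35 (6.62%), against 54 (3.75%, adjusted Fisher exact p = 0.0243). The exon difference missed the threshold with the cut at an IDR of 0.005 (5.46% against 3.70%, adjusted exact p = 0.470) and without the regions under a signal of 20 (adjusted exact p = 0.0543), and it turned round in the replicate 1 list (2.34% against 3.5%). Introns held 90 (17%), against 197 (13.7%, adjusted exact p = 0.119), non-coding genes 17 (3.21%), against 51 (3.54%), and intergenic sequence 124 (23.4%), against 304 (21.1%); these 3 did not pass. P-values over peaks describe these lists, since peaks share their libraries and some overlap, and they do not measure the spread between animals.

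**Figure D4:**
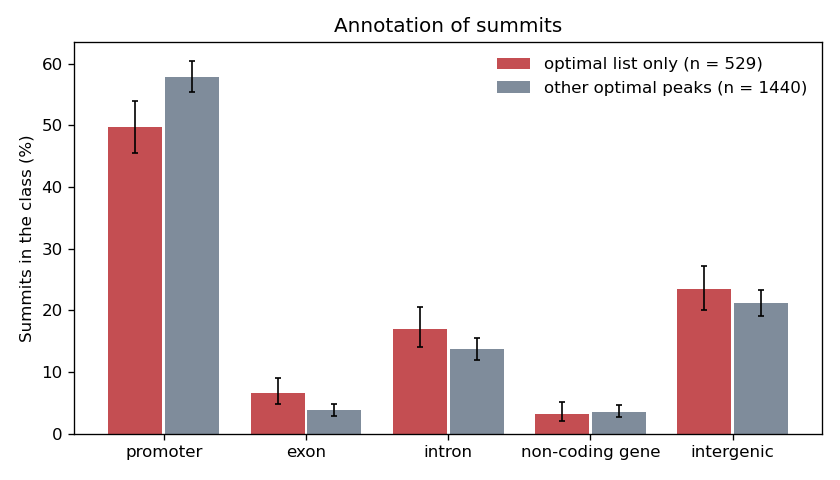
Share of summits in each annotation class, in percent, for the 529 peaks only in the optimal list (left bars) and the 1440 other optimal peaks (right bars), with 95% Wilson intervals. Promoters held 49.7% and 57.9%.

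The promoter shares were also taken by replicate list. Regions in the replicate 1 list lay in promoters in 59.4% of cases, against 59.7% of the other optimal peaks in it (adjusted Fisher exact p = 0.944). In the replicate 2 list the shares were 43.3% and 60.4% (adjusted exact p = 0.147), and 40.3% of the regions in neither list lay in promoters. With the cut at an IDR of 0.005 the difference no longer passed (55.6% against 58.3%, adjusted exact p = 0.636) nor did it with shorter promoters, 500 bp before to 100 bp after the start (38.6% against 43.2%, adjusted exact p = 0.178). By chromosome nothing passed: X held 118 summits (22.3%), against 302 (21%) and 21.3% of all, with an adjusted Fisher exact p of 0.803 over 6 chromosomes.

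TTGCGAAA stood within 100 bp of the summit, on either strand, in 81 of the 529 regions (15.3%, 12.5 to 18.6). The same windows centred 500 bp away held it in 15 (2.84%), a difference of 12.5 percentage points (two-sided exact McNemar test, adjusted over 16 motifs, p = 1.72e-11). In the other optimal peaks it stood in 430 (29.9%, 27.6 to 32.3), and in 1.94% of their flanks, and it stood in 26.0% of all optimal peaks. The share in the 529 was lower by 14.5 percentage points (Fisher exact test, adjusted over 16 motifs, p = 3.04e-10). That difference did not pass once the others were restricted to the same signal range, where 16.5% of 879 peaks had the word (adjusted exact p = 0.686).

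By replicate list, the word stood at 60 of the 256 summits of the replicate 1 list (23.4%, 18.7 to 29.0), at 0 of the 30 of the replicate 2 list, for which the Wilson interval reaches 11.4%, and at 21 of the 243 in neither (8.64%, 5.72 to 12.8). Among regions with a signal from 100 to 150 it stood at 20 of 49 (40.8%, 28.2 to 54.8), against 111 of 464 other optimal peaks in that range (23.9%, 20.3 to 28.0). Between 70 and 80 it stood at 29 of 197 (14.7%), against 7 of 64 (10.9%), and between 80 and 90 at 17 of 128 (13.3%), against 24 of 161 (14.9%). The shares by signal were not tested. The nearest copy had a median distance of 17.5 bp from the summit, against 18.5 bp in the others, and 7 regions had 2 or more copies.

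Words that differ from it at 1 base, such as TTACGAAA, TTGTGAAA and TTGCTAAA, were counted too, only in windows without TTGCGAAA itself. That leaves out 81 summit windows and 15 flank windows, so the 2 sides are not counted over equal numbers. Their percentages are of all 529, and the other words below were counted in all windows unless stated. TTACGAAA stood at 24 summits and in 5 flanks (4.54% and 0.945%, adjusted exact McNemar p = 0.00655). TTGTGAAA stood at 31 and in 13 (adjusted exact p = 0.0633), and TTGCTAAA at 0 and in 13 (adjusted exact p = 0.00586). The paired C/EBP sites TTGCGCAA, TTGCGTAA, TTACGCAA and TTACGTAA, counted jointly, stood at 13 summits and in 2 flanks (2.46% and 0.378%, adjusted exact p = 0.0169). The wider core TTGCNNAA, which includes TTGCGAAA, stood at 134 summits and in 119 flanks (25.3% and 22.5%, adjusted exact McNemar p = 0.355). The 2 rearrangements of the word's letters, TTGAGCAA and AAGTGCTA, stood at 3 and 1 summits and in 11 and 2 flanks.

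TGATAA was the word that set these regions apart from the other optimal peaks in the upward direction. It stood at 148 of the 529 summits (28.0%, 24.3 to 32.0), against 247 of the 1440 others (17.2%, 15.3 to 19.2) and 20.1% of all optimal peaks, a difference of 10.8 percentage points (Fisher exact test, adjusted over 16 motifs, p = 1.27e-06). Against others between the lowest and highest signal of the 529 the shares were 28.0% and 17.2% (adjusted exact p = 3.67e-05). That range does not match signal within it. At a signal of 70 to 90 TGATAA stood at 86 of 325 summits (26.5%), against 50 of 225 others (22.2%). The flanks there held it at 22.5% and 15.6%. At 90 to 150 it stood at 37 of 94 (39.4%), against 104 of 628 (16.6%), with flanks at 18.1% and 18.6%. These shares by signal were not tested. In the flanks of the 529 it stood in 104 (19.7%, adjusted exact McNemar p = 0.00518), and in the others it stood at 17.2% of summits and 16.7% of flanks (adjusted exact p = 0.804). The comparison with flanks missed the threshold with the cut at 0.005 (adjusted exact p = 0.0596) or with AGATAA counted too (adjusted exact p = 0.0918).

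The shares of TGATAA were also taken by replicate list. In that of replicate 1 it stood at 93 of 256 summits (36.3%, 30.7 to 42.4), against 199 of the 1142 other optimal peaks in that list (17.4%, adjusted Fisher exact p = 2.69e-09). In the replicate 2 list it stood at 4 of 30 (13.3%), against 113 of 761 (14.8%), and in neither list at 51 of 243 (21%), against 41 of 223 (18.4%). It stood at 38.7% of intergenic summits of the 529 and in 22.6% of their flanks, against 18.1% of both in the others. At promoter summits of the 529 it stood in 24.3%, close to the 22.1% of their flanks, against 16.7% of summits and 15.8% of flanks in the others. TGATAA is rich in A and T, and windows of the 529 had a median of 40.3% G and C, against 41.8% in the others. In windows under 38% G and C it stood at 42.4% of the 529, against 27.9% of the others, and in windows of 44% or more at 12.2%, against 8.25%. The flanks of the peaks in that last band held it at 17.8% in the 529 and 16.3% in the others. Its copies did not gather at the summit as those of TTGCGAAA did. Of 210 copies 24.3% lay within 25 bp of the summit, against 52.8% of the 89 copies of TTGCGAAA in the same windows. The median distance of the TGATAA copies was 49.5 bp, in windows that reach 100 bp. In the other optimal peaks 28.3% of 314 copies of TGATAA lay within 25 bp.

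**Figure D5:**
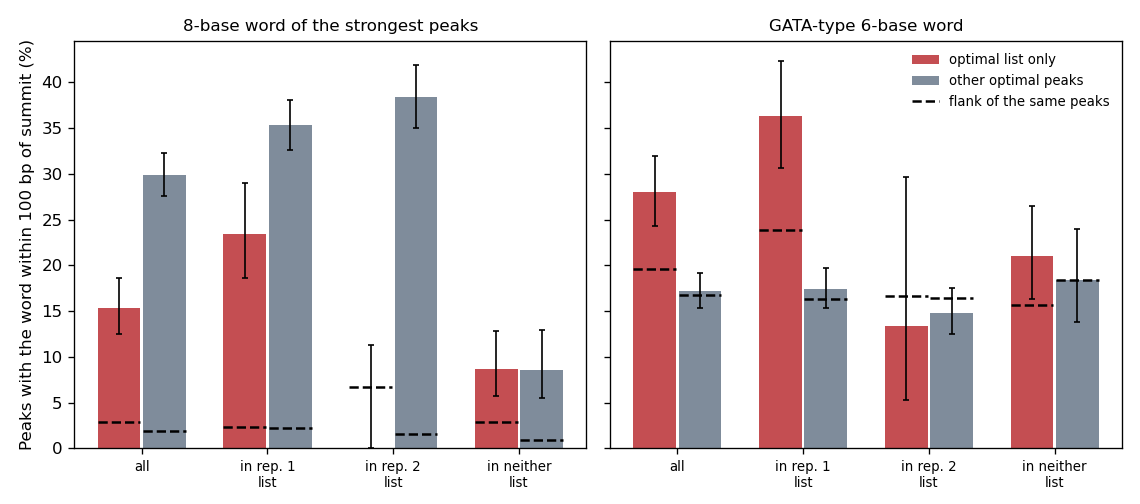
Percentage of summits with TTGCGAAA (left panel) or TGATAA (right panel) within 100 bp, by the replicate list that holds the peak, for peaks only in the optimal list (left bars) and other optimal peaks (right bars), with 95% Wilson intervals and the flanks of the same peaks as dashed lines. Over all peaks TTGCGAAA is at 15.3% against 29.9% and TGATAA at 28.0% against 17.2%; in the replicate 1 list TGATAA is at 36.3% against 17.4%.

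Other words separated summits from flanks without separating the 529 from the other optimal peaks. The E-box CACGTG, bound by bHLH factors, stood at 9.83% of summits and in 4.54% of flanks, and the GC box GGGCGG at 9.83% and in 4.35%. GAGAGAGA stood at 7.75% and in 2.08%. In the other optimal peaks the summit shares were 8.06%, 10.3% and 6.94%, and none of these 3 differences between the sets passed (adjusted Fisher exact p = 0.576, 0.855 and 0.718). Summit windows of the 529 had a median of 40.3% G and C, against 35.3% in their flanks. In summit windows under 38% G and C the 3 words stood at 8.29%, 5.85% and 4.88%, against 6.83%, 4.39% and 2.44% of flanks. In those of 44% or more they stood at 12.2%, 16.1% and 13.3%, against 2.22% of flanks for each. The part played by base composition was not tested.

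Promoters of 316 protein-coding genes held a summit of the set, 1.58% of 19973 genes; 962 genes (4.82%) had another optimal summit there. For 296 of the 316 (93.7%) no conservative summit lay in the promoter, so they enter a target list only with these peaks, and 32 genes had 2 or more regions. A peak near a start does not show that the gene responds to CEBP-1, and no expression data were used.

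Genes of stress signalling and immunity were among them. Of 29 bZIP genes 4 had a region: zip-4, atf-4, the translation-dependent factor of the integrated stress response, zip-2, the partner in surveillance immunity, and skn-1, the Nrf-like oxidative stress factor; 8 of the 29 had another optimal summit. Their signal values were 111.7, 90.8, 83.5 and 77.5, and for zip-4, zip-2 and skn-1 a conservative summit stood in the same promoter. At skn-1 the region ranked 3304 in replicate 1 and 1217 in replicate 2, and at zip-2 it ranked 1168 in replicate 1 and had no replicate 2 peak.

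irg-1, an infection response gene induced when translation is inhibited, had a region of 80.5 at chrV:3523318-3523621, 117 bp upstream, with rank 1302 in replicate 1 and 9547 in replicate 2. The 80 bases around its summit, chrV:3523430-3523509 on the plus strand, are shown because they hold TTGCGAAA on the minus strand, in capitals as its reverse complement.
irg-1: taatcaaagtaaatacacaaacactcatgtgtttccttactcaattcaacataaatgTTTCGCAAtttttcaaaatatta

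hsp-6, the mitochondrial Hsp70 whose induction marks the mitochondrial unfolded protein response, had 96.6 in a promoter shared with C37H5.5, and clpp-1, the mitochondrial protease subunit, had 86.5; these were 2 of 17 genes of mitochondrial stress (4 with another optimal summit). Of 24 genes of the endoplasmic reticulum response, atf-4 and enpl-1, the Grp94 chaperone (71.9), had a region, and 7 had another optimal summit. Of 24 SKN-1 pathway genes wdr-23, which represses SKN-1 (87.1), and skn-1 did, and 3 had another. Of 19 DLK-1 and JNK pathway genes 1, mak-2, the kinase known to stabilise cebp-1 mRNA, had a region (98.5), and 4 had another. None of the 14 p38 immunity genes and none of 26 insulin and TOR genes did, against 2 and 6 with another optimal summit. At 1.58% of all genes, lists that small can hold no region, so these absences are not read as a result. The other shares with a region were 13.8% (bZIP), 11.8% (mitochondrial stress), 8.33% (endoplasmic reticulum), 8.33% (SKN-1) and 5.26% (DLK-1 and JNK). Another optimal summit stood at 4.82% of all genes, and none of these lists was tested.

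Genes of growth and metabolism were the next lists counted. Of 83 cytosolic ribosomal protein genes 9 (10.8%) had a region, led by rps-13 (87.3), rpl-24.1 and rps-10, which share 1 peak (81.6), and rpl-5 (81.1), and 22 had another optimal summit. Of 46 translation factor genes 5 (10.9%) did, among them eif-1.A, eif-2Bepsilon (105.2), eif-3.E (88.6) and eif-3.G (84.1), and 14 had another. Of 47 genes of oxidative phosphorylation 5 (10.6%) did: nuo-6 (95.6) and nuo-3 (70.1) of complex I, sdha-1 (84.2) and mev-1 (84.9) of succinate dehydrogenase, and atp-1 (89.6) of the ATP synthase; 11 had another. These shares stand beside 1.58% of genes at large, and those with another optimal summit beside 4.82%; no list was tested. Shares were lower in other lists of this kind: 2 of 33 proteasome genes (6.06%), 3 of 66 splicing and capping genes (4.55%) and 1 of 32 aminoacyl-tRNA synthetase genes. Of the 70 mitochondrial ribosomal protein genes 0 had a region, and 2 had another optimal summit.

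Of 85 microtubule and axonal transport genes 7 (8.24%) had a region, including tba-4, an α-tubulin (101.0), zyg-1, the centriole kinase (92.2), lis-1 (79.4) and dnc-3 (78.2) of dynein regulation, and 19 had another optimal summit. Of 137 endosomal and Rab genes 9 (6.57%) did, among them vps-51 (100.2), syx-2 (95.3), the sorting nexin snx-1 (94.2) and rab-10 (91.8), and 20 had another. Of 70 genes listed as cytosolic chaperones 4 did: cct-6, dnj-23 (102.9), hsp-6 and hsp-43 (69.5), and 16 had another. That list holds hsp-6 although its product is mitochondrial, and hsp-6 is also counted above among the genes of mitochondrial stress. Among large families and neuronal genes, a region stood at 3 of 1365 chemoreceptor genes (0.22%), 5 of 329 F-box genes (1.52%) and 6 of 258 detoxification genes (2.33%), beside 1.58% of all genes; another optimal summit stood at 9, 21 and 14 of them. None of 58 synaptic vesicle genes and none of 226 neuropeptide and amine receptor genes had a region, beside the same 1.58%. Another optimal summit stood at 4 (6.90%) and 2 (0.885%) of them, beside 4.82% of all genes.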

How the data were processed

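Chromatin immunoprecipitation sequencing gave 8 peak lists: thresholded and ranked lists for each of 2 replicates and for 2 series comparisons. The labels and headers used here name no peak caller. The depths of the libraries are unknown from these lists. The signal of each peak (column 7) is given as deposited by the authors. The score (column 5) was deposited by the authors and stays between 830 and 1000 in the thresholded lists. The −log10 global IDR stands in column 12 of the ranked lists as deposited by the authors. Each series list was paired with the ranked list that shares its intervals.

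Peaks were compared by overlap of 1 bp or more, and the code was tested on simulated intervals and words and checked with bedtools 2.31.1. Summits were annotated with the Ensembl 115 gene set of WBcel235 (ce11), and sequence came from the RefSeq genome of that build. Windows of 100 bp each side of the summit were compared with windows centred 500 bp away, on alternating sides. Fisher and McNemar tests were two-sided and exact (scipy 1.17.1, Python 3.11.15), with Benjamini-Hochberg adjustment within a family and a threshold of 0.05. Wilson intervals cover counting error only. No test over replicates was possible with 1 group.

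The members and lists were chosen with earlier results of these data known. Genes were named by rule: those at the 25 strongest regions, up to 4 of each list mentioned, and the 5 regions nearest each threshold. Others, such as irg-1, C25F9 and ftn-1, were chosen after their values were seen.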

Additional observations from a re-analysis of the deposited data

How the results depend on the processing

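The alternatives tried were other overlap and merging rules, a global IDR of 0.005, promoters of other sizes, other windows and flanks, a comparison within 1 signal range and each replicate list alone. Of 95 values recomputed, 76 kept their direction and their side of the threshold (counts within 1.5 times). Some alternatives, on TGATAA, low-signal regions and gene counts, were chosen after seeing the data.

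At a global IDR of 0.005 the number of regions was 293, those in neither replicate list were 74, and 201 genes had one in the promoter. The promoter difference was then -2.68 percentage points, and that of TGATAA between summits and flanks 8.53. With the shorter promoters (500 bp before to 100 bp after the start) the promoter difference was -4.63. Against other optimal peaks in the same signal range the TTGCGAAA difference was -1.18. With AGATAA counted too, the TGATAA difference between summits and flanks was 5.67.

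Within the replicate 2 list (30 regions) and the replicate 1 list (256 regions) the promoter difference was -17.1 and -0.34, that of exons 10.05 and -1.16, that of TTGCGAAA between summits and flanks -6.67 and 21.1, that of TGATAA between summits and flanks -3.33 and 12.5, and that of TGATAA from the other peaks -1.52 and 18.9. The genes numbered 16 and 192, since fewer regions enter. For the other changes the cause was not tested. No paired analysis was possible because the series has 1 group. Library depth is unknown, which limits how the absence of a replicate peak can be read.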
